A study of Sus scrofa with 12 samples.

Results

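Myostatin, the activin subunit INHBA, the TGF-beta ligands, their extracellular binding proteins and their receptors were followed across proliferation and differentiation of pig muscle satellite cells. The genes were chosen by symbol: MSTN, INHBA, TGFB1, TGFB2 and TGFB3 among the ligands, FST and FSTL3 among the binding proteins, and ACVR2B, TGFBR1 and TGFBR2 among the receptors. All 10 symbols had exactly 1 row among the 31908 genes of the deposited expression table. Satellite cells are the stem cells of skeletal muscle, which divide as myoblasts and then fuse into myotubes. The 12 RNA-seq libraries form 4 groups of 3: CBP cells at 0h, WT cells at 0h, CBP cells at 60h and WT cells at 60h, where 0h is labelled as proliferation and 60h as differentiation. The labels describe SGC-CBP30, a small molecule that blocks the acetyl-lysine reading domain of CBP and of its relative p300, at a dose labelled 5 uM per ml, with 48 h of exposure for proliferating cells and 60 h for differentiating cells. That text stands on every sample, WT included, and the arm names stand under a genotype tag, so CBP is read here as the arm given the compound and a genetic change cannot be told apart from it. What the WT cells received instead is not given in the sources used here. Stage and labelled exposure time change together, so the comparisons between 0h and 60h cannot tell them apart. All samples share the labelled cell line C3H, a name usual for mouse cells, although organism and genome build are those of the pig. The labels do not say whether replicates were separate cultures, so p-values measure the spread between these libraries, which may be technical.

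Ligands of this family are secreted as dimers and signal through pairs of type II and type I receptor kinases, which phosphorylate SMAD transcription factors. Myostatin, made mainly by muscle, and activin A, a dimer of INHBA subunits, bind the type II receptors ACVR2B and ACVR2A and restrain muscle growth. TGF-beta ligands bind TGFBR2, which recruits TGFBR1, and they hold back myoblast differentiation and fusion while promoting matrix synthesis. Follistatin (FST) and its relative FSTL3 capture activin and myostatin outside the cell and block them.

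Each library held 16095335 to 19155240 reads, recovered from the step size of the FPKM values (fragments or reads scaled to gene length and to library total, which can be set side by side between genes). The libraries separated by stage and arm on the first and second principal components, which held 49.4% and 34.9% of the variance, and no library lay among those of another group. All 8 listed satellite cell and myoblast markers stood at 1 FPKM or more in every group, with summed levels of 717 to 760 FPKM in CBP cells at 0h, 1859 to 1879 in WT cells at 0h, 1332 to 1439 in CBP cells at 60h and 1863 to 2011 in WT cells at 60h. All 8 were called lower in CBP cells at 0h. At 60h 4 were called higher and 4 lower (median log2 change 0.02), the lower sum being carried by DES and MYOG. Of all tested genes, 44.2% were called higher and 18.1% lower at 0h, and 44.7% higher and 27.0% lower at 60h. Markers of other cell types moved with the groups as well, and the part of any of these marker shifts in the results that follow was not tested. The 8 smooth muscle and pericyte markers summed to 855 to 909 FPKM in CBP and 2746 to 2844 in WT cells at 0h, and to 1611 to 1703 in CBP and 2750 to 2770 in WT cells at 60h. Most of these sums was ACTA2, which myoblasts also express, but the calls were not confined to it. Of the 7 tested, all 7 were called lower in CBP cells at 0h (median log2 change -1.43). At 60h 6 were called lower and 1 higher (median log2 change -1.23), beside the shares of all tested genes given above. The 8 fibroblast markers summed to 583 to 600 FPKM in CBP and 1109 to 1145 in WT cells at 0h, and to 2537 to 2781 in CBP and 3775 to 3936 in WT cells at 60h. At 0h 6 of the 8 fibroblast markers were called lower and 0 higher in CBP cells (median log2 change -0.80). At 60h the difference in the sum lay in COL1A1 (1551 FPKM in CBP and 2854 in WT cells), itself a TGF-beta target. At that stage 3 of the 8 markers were called higher and 3 lower (median log2 change -0.01). The 5 immune markers summed to at most 7.39 FPKM and the 5 endothelial ones to at most 3.71 FPKM in any library. CD3E was listed at 0 in every library, and the group means of PTPRC, CSF1R and TEK lay below 1 FPKM in every group.

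Most of these genes were lower in CBP than in WT cells at both stages, with MSTN and TGFB1 changing direction between the stages. ACVR2B stayed below the filter (1 FPKM or more in at least 3 libraries), so 9 of the 10 genes entered the test, limma on log2(FPKM + 1) over 11636 genes with Benjamini-Hochberg adjustment and a call at an adjusted p under 0.05. At 0h all 9 were called, 2 higher (TGFB1, TGFBR1) and 7 lower in CBP cells, against 62.3% of all tested genes called, 44.2% higher and 18.1% lower. At 60h all 9 were called again, 2 higher (MSTN, TGFBR1) and 7 lower, against 71.6% of all genes, 44.7% higher and 27.0% lower. The median log2 change of the 9 genes was -0.83 at 0h and -0.37 at 60h, beside 0.12 and 0.10 over all tested genes. Their median absolute log2 change was 0.83 at 0h and 1.27 at 60h, beside 0.21 and 0.29 over all tested genes. In all 9 genes the replicates of CBP and WT cells did not overlap at either stage, which held for 66.8% of all tested genes at 0h and 74.3% at 60h. Scaling by median of ratios moved the median of all genes by about the whole of those 0.12 and 0.10, giving 2958 genes higher and 3131 lower at 0h and 3899 higher and 4155 lower at 60h. Under that scaling TGFBR1 was no longer called at 0h, which left 1 of the 9 genes higher and 7 lower, while the direction of every other called difference between CBP and WT cells was kept. In these bulk libraries, fewer cells of a type and less RNA per cell cannot be told apart.

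**Figure D1:**
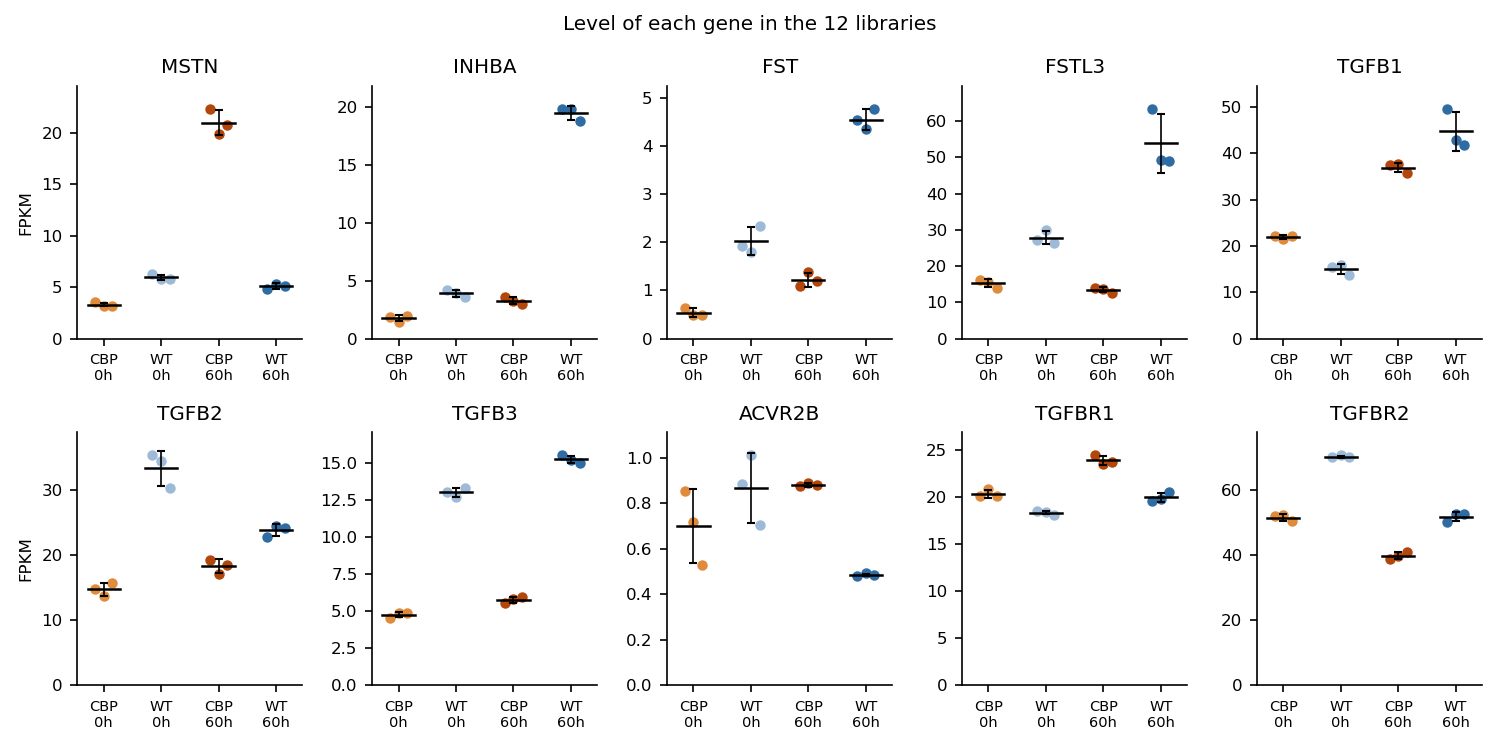
FPKM of each of the 10 genes in every library (points), with the group mean (bar) and SD over 3 libraries (whiskers), for CBP and WT cells at 0h and at 60h. MSTN stands highest in CBP cells at 60h, INHBA, FST and FSTL3 in WT cells at 60h, and TGFB2 and TGFBR2 in WT cells at 0h.

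**Figure D2:**
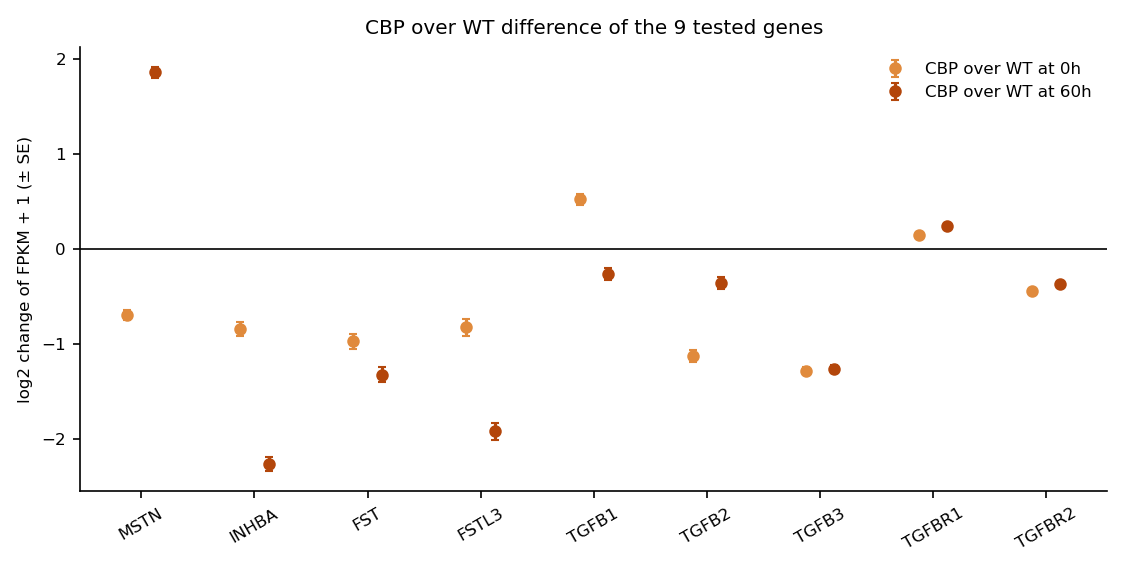
Log2 change of FPKM + 1 between CBP and WT cells at 0h and at 60h for the 9 tested genes, with the standard error of the limma fit. MSTN lies below 0 at 0h (-0.70) and above 0 at 60h (1.86), and TGFB1 above 0 at 0h (0.52) and below 0 at 60h (-0.27).

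Among the 9 tested genes, myostatin had the CBP to WT difference that changed most between 0h and 60h. MSTN (ENSSSCG00000016047; chromosome 15, 94623526 to 94628440 in Sscrofa11.1) stood at 3.51, 3.18 and 3.20 FPKM in CBP cells at 0h, against 6.25, 5.82 and 5.79 FPKM in WT cells at 0h. At 60h it reached 22.3, 19.9 and 20.7 FPKM in CBP cells, against 4.77, 5.34 and 5.09 FPKM in WT cells. Every CBP library was thus below every WT library in proliferation and above every WT library in differentiation. MSTN was 1.81-fold lower in CBP cells at 0h (log2 change -0.70, SE 0.055, limma adjusted p = 5.15e-07). It was 4.14-fold higher in CBP cells at 60h (log2 change 1.86, SE 0.055, limma adjusted p = 4.73e-11). The 2 changes differed by 2.55 on the log2 scale (SE 0.077, limma adjusted p = 3.23e-10), with 50.9% of all tested genes called in this test of the difference between stages. From 0h to 60h MSTN rose 6.37-fold in CBP cells, while in WT cells it fell by 0.20 on the log2 scale (limma adjusted p = 0.00702, but 0.0631 after scaling to TPM). The 12 values rest on 231 to 1858 reads per library. Its order of levels was CBP cells at 60h, WT cells at 0h, WT cells at 60h and CBP cells at 0h, with no overlap between neighbouring groups.

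GDF11, the ligand closest to myostatin in sequence, was also higher in CBP cells, but at both stages. It averaged 5.80 ± 0.147 FPKM in CBP and 2.46 ± 0.189 in WT cells at 0h, and 8.25 ± 0.190 in CBP and 2.46 ± 0.459 in WT cells at 60h (SD, n = 3 each). The log2 change was 0.97 at 0h and 1.42 at 60h, both called. GDF11 is named here for its likeness to myostatin, outside the rule for named genes and after its values were seen.

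INHBA, the subunit of activin A, was lower in CBP cells at both stages and differed most in differentiation. The gene (ENSSSCG00000035077) stood at 1.84, 1.45 and 1.92 FPKM in CBP cells at 0h, against 4.18, 3.92 and 3.61 FPKM in WT cells at 0h. After 60h it stood at 3.57, 3.25 and 2.97 FPKM in CBP cells, against 19.8, 19.8 and 18.8 FPKM in WT cells. The lowest WT library at 60h was thus more than 5 times the highest CBP library of that stage, and at 60h CBP cells had not reached the level WT cells held at 0h. INHBA was 2.25-fold lower in CBP cells at 0h (log2 change -0.85, SE 0.075, limma adjusted p = 1.38e-06) and 5.97-fold lower at 60h (log2 change -2.27, SE 0.075, limma adjusted p = 1.18e-10). The change at 60h exceeded that at 0h by -1.42 on the log2 scale (SE 0.106, limma adjusted p = 4.95e-07). Both arms gained INHBA transcripts with differentiation, CBP cells by a log2 change of 0.64 and WT cells by 2.06. INHBB, the other activin subunit, averaged 1.54 ± 0.0404 FPKM in CBP and 4.97 ± 0.751 in WT cells at 0h, and 3.26 ± 0.0711 in CBP and 5.12 ± 0.558 in WT cells at 60h (SD, n = 3 each). It is given as the counterpart of INHBA, outside the rule for named genes.

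Both extracellular inhibitors were lower in CBP cells at both stages. FST (ENSSSCG00000016892; chromosome 16, 32806341 to 32811382) was the less abundant, at 0.639, 0.494 and 0.485 FPKM in CBP cells at 0h, against 1.93, 1.81 and 2.35 FPKM in WT cells at 0h. At 60h it stood at 1.09, 1.38 and 1.19 FPKM in CBP cells, against 4.54, 4.36 and 4.78 FPKM in WT cells. The groups did not overlap, and the order was WT at 60h, WT at 0h, CBP at 60h and CBP at 0h. The ratio of mean FPKM was nearly the same at both stages, 3.77-fold lower in CBP cells at 0h (limma adjusted p = 7.11e-07) and 3.74-fold lower at 60h (limma adjusted p = 2.20e-08). The log2(FPKM + 1) changes of -0.98 (SE 0.080) and -1.33 (SE 0.080) differed by -0.35 (limma adjusted p = 0.021), and this call was lost with a pseudocount of 0.1 (difference -0.09, adjusted p = 0.719). FST rests on few reads, 44 over the 3 CBP libraries at 0h, 177 in WT at 0h, 106 in CBP at 60h and 385 in WT at 60h.

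FSTL3 (ENSSSCG00000037102; chromosome 2, 77656655 to 77662608) was the more abundant inhibitor. It stood at 16.2, 15.6 and 14.0 FPKM in CBP cells at 0h, against 27.3, 29.9 and 26.4 FPKM in WT cells at 0h. In CBP cells at 60h the values were 14.0, 13.6 and 12.7 FPKM, against 63.4, 49.3 and 49.1 FPKM in WT cells. WT cells gained FSTL3 with differentiation (log2 change 0.92, SE 0.090, limma adjusted p = 2.22e-06), whereas the difference of -0.17 in CBP cells did not pass (limma adjusted p = 0.103). That stage difference in CBP cells passed without WT replicate 1 at 60h (adjusted p = 0.0199), the library at 63.4 FPKM. FSTL3 was 1.82-fold lower in CBP cells at 0h (limma adjusted p = 8.50e-06) and 4.02-fold lower at 60h (limma adjusted p = 2.55e-09), and the 2 changes differed by -1.09 (SE 0.128, limma adjusted p = 2.08e-05).

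Because a ratio of genes within a library does not depend on how libraries are scaled, the ligands were also set against their inhibitors in each library. MSTN exceeded FST 20.5, 14.5 and 17.4 times in the CBP libraries at 60h, against 1.05, 1.23 and 1.07 times in WT libraries at 60h. At 0h the ratio was 5.50, 6.43 and 6.59 in CBP libraries and 3.23, 3.22 and 2.46 in WT libraries. MSTN over FSTL3 averaged 1.56 ± 0.0904 in CBP and 0.0958 ± 0.018 in WT cells at 60h, but 0.216 ± 0.0125 in CBP and 0.214 ± 0.018 in WT cells at 0h (SD, n = 3 each), where the arms overlapped. INHBA over FST went the other way at 60h, with 2.71 ± 0.501 in CBP and 4.28 ± 0.322 in WT cells, and stood at 3.26 ± 0.616 in CBP and 1.96 ± 0.365 in WT cells at 0h. MSTN transcripts outnumbered INHBA transcripts per length 6.46 ± 0.466 times in CBP cells at 60h, whereas in WT cells at 60h the ratio was 0.261 ± 0.0167. Ratios over FST rest on few FST reads in CBP cells, 12 to 18 per library at 0h and 31 to 40 at 60h, and are less certain there. These ratios are descriptions of transcript levels and were not tested.

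**Figure D3:**
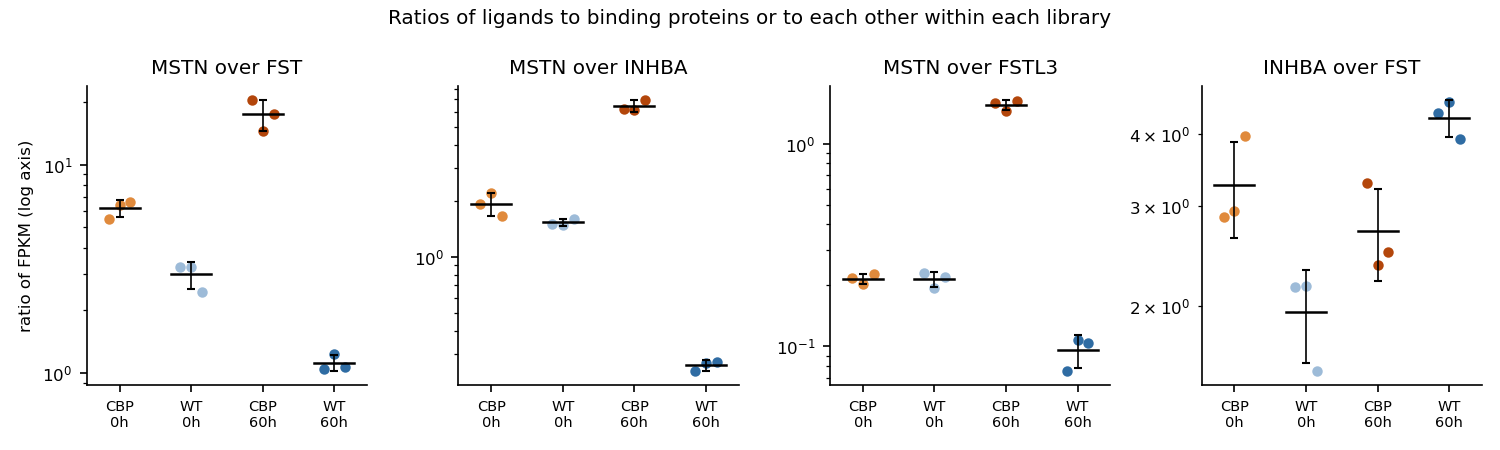
Ratio of FPKM within each library (points; log axis), with group mean and SD over 3 libraries, for MSTN over FST, MSTN over INHBA, MSTN over FSTL3 and INHBA over FST. The first 3 ratios are highest in CBP cells at 60h (means 17.5, 6.46 and 1.56) and lowest in WT cells at 60h (1.11, 0.261 and 0.0958).

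The 3 TGF-beta ligands responded differently from each other. TGFB1 (ENSSSCG00000003017; chromosome 6, 49332169 to 49348642), the isoform most studied in fibrosis, stood at 22.2, 21.5 and 22.1 FPKM in CBP cells at 0h, against 15.5, 15.8 and 13.8 FPKM in WT cells at 0h. At 60h it stood at 37.4, 37.6 and 35.8 FPKM in CBP cells, against 49.6, 43.0 and 41.8 FPKM in WT cells. TGFB1 was thus 1.46-fold higher in CBP cells at 0h (log2 change 0.52, SE 0.061, limma adjusted p = 1.55e-05) and 1.21-fold lower at 60h (log2 change -0.27, SE 0.061, limma adjusted p = 0.0018). The changes differed by -0.79 (SE 0.086, limma adjusted p = 1.20e-05). Both arms gained TGFB1 with differentiation, CBP cells by a log2 change of 0.73 and WT cells by 1.51.

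TGFB2 (ENSSSCG00000010816; chromosome 10, 8306136 to 8435307) was lower in CBP cells at both stages, and more so in proliferation. It stood at 14.8, 13.7 and 15.7 FPKM in CBP cells at 0h, against 35.3, 34.4 and 30.3 FPKM in WT cells, and at 19.3, 17.1 and 18.4 FPKM in CBP cells at 60h, against 22.8, 24.5 and 24.1 FPKM in WT cells. The fold was 2.27 at 0h (log2 change -1.13, SE 0.064, limma adjusted p = 3.25e-08) and 1.30 at 60h (log2 change -0.36, SE 0.064, limma adjusted p = 0.000273), and the changes differed by 0.76 (SE 0.091, limma adjusted p = 2.40e-05). With differentiation TGFB2 rose in CBP cells by a log2 change of 0.29 and fell by 0.47 in WT cells.

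TGFB3 (ENSSSCG00000002385; chromosome 7, 99133873 to 99162239) was lower in CBP cells by a similar amount at both stages. It stood at 4.55, 4.86 and 4.87 FPKM in CBP cells at 0h, against 13.0, 12.7 and 13.3 FPKM in WT cells. In CBP cells at 60h it stood at 5.55, 5.78 and 5.92 FPKM, against 15.5, 15.2 and 15 FPKM in WT cells. The fold was 2.74 at 0h (log2 change -1.29, SE 0.038, limma adjusted p = 9.98e-11) and 2.65 at 60h (log2 change -1.27, SE 0.038, limma adjusted p = 4.98e-11). A difference between the stages did not pass (0.02, SE 0.053, limma adjusted p = 0.783).

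Set together, transcripts of the 3 isoforms summed to 41.4 ± 1.35 FPKM in CBP and 61.4 ± 3.47 in WT cells at 0h, and to 61.0 ± 1.17 in CBP and 83.8 ± 3.68 in WT cells at 60h (SD, n = 3 each). Their makeup differed most at 0h. TGFB1 made up 53.0% ± 1.00 of that sum in CBP cells at 0h against 24.4% ± 0.552 in WT cells at 0h, where TGFB2 was the main isoform with 54.3% ± 1.34. At 60h TGFB1 was the main isoform in both arms, with 60.6% ± 1.34 in CBP and 53.4% ± 2.65 in WT cells. TGFB3 made up 11.5% ± 0.604 in CBP and 21.3% ± 1.66 in WT cells at 0h, and 9.44% ± 0.479 in CBP and 18.2% ± 0.523 in WT cells at 60h. These shares are descriptions and were not tested.

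**Figure D4:**
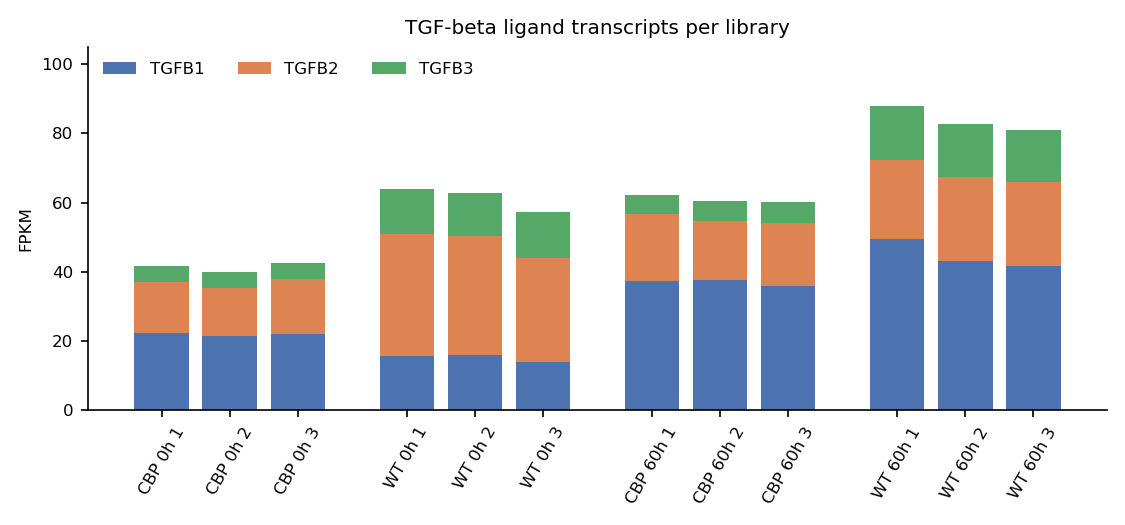
Stacked FPKM of TGFB1, TGFB2 and TGFB3 in each of the 12 libraries. In the 3 WT libraries at 0h TGFB2 is the largest part (52.8% to 55.3%), while in the 3 CBP libraries at 0h TGFB1 is (51.8% to 53.7%).

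Both TGF-beta receptors differed by less than 1.5-fold between the arms, TGFBR2 being lower and TGFBR1 higher in CBP cells. TGFBR2 (ENSSSCG00000011226; chromosome 13, 16784370 to 16875828), the type II receptor that binds TGF-beta, was the most abundant of the 10 genes by group mean at 0h in both arms, at 51.8, 52.2 and 50.3 FPKM in CBP cells and 70.0, 70.5 and 69.9 FPKM in WT cells. At 60h it stood at 38.6, 39.6 and 40.8 FPKM in CBP cells, against 50.0, 52.5 and 52.4 FPKM in WT cells. TGFBR2 was 1.36-fold lower in CBP cells at 0h (log2 change -0.44, SE 0.029, limma adjusted p = 1.06e-07) and 1.30-fold lower at 60h (log2 change -0.37, SE 0.029, limma adjusted p = 2.17e-07). A difference between the stages did not pass (0.07, limma adjusted p = 0.184). It fell with differentiation in both arms, by 0.37 in CBP cells and by 0.43 in WT cells on the log2 scale, so the levels in CBP cells at 0h and WT cells at 60h overlapped.

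TGFBR1 (ENSSSCG00000005382; chromosome 1, 240842735 to 240918267), the type I receptor of TGF-beta, stood at 20.1, 20.8 and 20.1 FPKM in CBP cells at 0h, against 18.5, 18.4 and 18.1 FPKM in WT cells. At 60h it stood at 24.4, 23.5 and 23.7 FPKM in CBP cells, against 19.6, 19.8 and 20.5 FPKM in WT cells. The log2 change was 0.14 at 0h (SE 0.029, limma adjusted p = 0.00106), close to the 0.12 of the median tested gene, and 0.01 after median-of-ratios scaling (adjusted p = 0.771). At 60h it was 0.24 (SE 0.029, limma adjusted p = 1.02e-05) and 0.12 after that scaling (adjusted p = 0.00239). A difference between the stages did not pass (0.10, limma adjusted p = 0.0583), but did after scaling by median of ratios (adjusted p = 0.039), to TPM (0.0223) or by quantiles (0.0358). TGFBR2 exceeded TGFBR1 per length 2.53 ± 0.0400 times in CBP and 3.83 ± 0.0414 times in WT cells at 0h, and 1.66 ± 0.0717 times in CBP and 2.59 ± 0.0565 times in WT cells at 60h (SD, n = 3 each).

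ACVR2B (ENSSSCG00000011257; chromosome 13, 23237699 to 23276086), a type II receptor of myostatin and activin, was the least abundant member in each WT group and at 60h in CBP cells. It stood at 0.854, 0.716 and 0.527 FPKM in CBP cells at 0h, against 0.885, 1.01 and 0.702 FPKM in WT cells, with overlap. At 60h it stood at 0.874, 0.888 and 0.879 FPKM in CBP cells, against 0.479, 0.491 and 0.482 FPKM in WT cells, without overlap. With the filter lowered to 0.1 FPKM, 15435 genes were tested, and ACVR2B was higher in CBP cells at 60h (log2 change 0.34, SE 0.075, limma adjusted p = 0.0019) but not called at 0h (-0.14, limma adjusted p = 0.16). In that fit its difference between the stages was 0.48 (SE 0.107, limma adjusted p = 0.0036). ACVR2A, the other type II receptor for these ligands, averaged 2.63 ± 0.139 FPKM in CBP and 2.52 ± 0.237 in WT cells at 0h, and 6.35 ± 0.106 in CBP and 3.56 ± 0.166 in WT cells at 60h (SD, n = 3 each).

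With stage, 7 of the 9 tested genes rose in CBP cells, TGFBR2 fell and FSTL3 did not pass, against 72.7% of all tested genes called, 31.3% higher and 41.5% lower. In WT cells 6 rose and 3 (MSTN, TGFB2 and TGFBR2) fell, against 66.8% of all genes called, 28.8% higher and 38.0% lower. The 2 stages did not overlap in any of the 9 genes in either arm, which held for 75.2% of all tested genes in CBP cells and 70.8% in WT cells. For FSTL3 in CBP cells this was by a narrow margin. Its lowest library at 0h and its highest at 60h both round to 14.0 FPKM. Scaling to TPM changed the split of all genes to 4557 higher and 3794 lower in CBP cells, and to 4090 higher and 3580 lower in WT cells. Median-of-ratios scaling gave 4225 higher and 4161 lower in CBP cells, and 3904 higher and 3805 lower in WT cells. The test of the difference between stages called 2 of the 9 genes with a more positive change at 60h (MSTN, TGFB2) and 4 with a more negative one (INHBA, FST, FSTL3, TGFB1), against 24.3% and 26.7% of all genes. Scaled to TPM, 3 genes were called in each direction. The 5 comparisons share libraries, so the values of a gene in them are not independent of each other.

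The wider pathway was described from 97 other genes in 7 lists, of which 80 were tested. At 0h 16 of the 80 (20%) were higher and 39 (48.8%) lower in CBP cells, beside the 44.2% and 18.1% of all tested genes given above, with a median log2 change of -0.11. Median-of-ratios scaling gave 5 higher and 47 lower, and quantile scaling 9 higher and 42 lower. At 60h 21 (26.2%) were higher and 45 (56.2%) lower, beside 44.7% and 27.0% of all genes, with a median log2 change of -0.23. With stage, 51 (63.8%) rose and 20 (25%) fell in CBP cells, beside 31.3% of all genes higher and 41.5% lower, and 48 (60%) rose and 15 (18.8%) fell in WT cells, beside 28.8% and 38.0%.

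**Figure D5:**
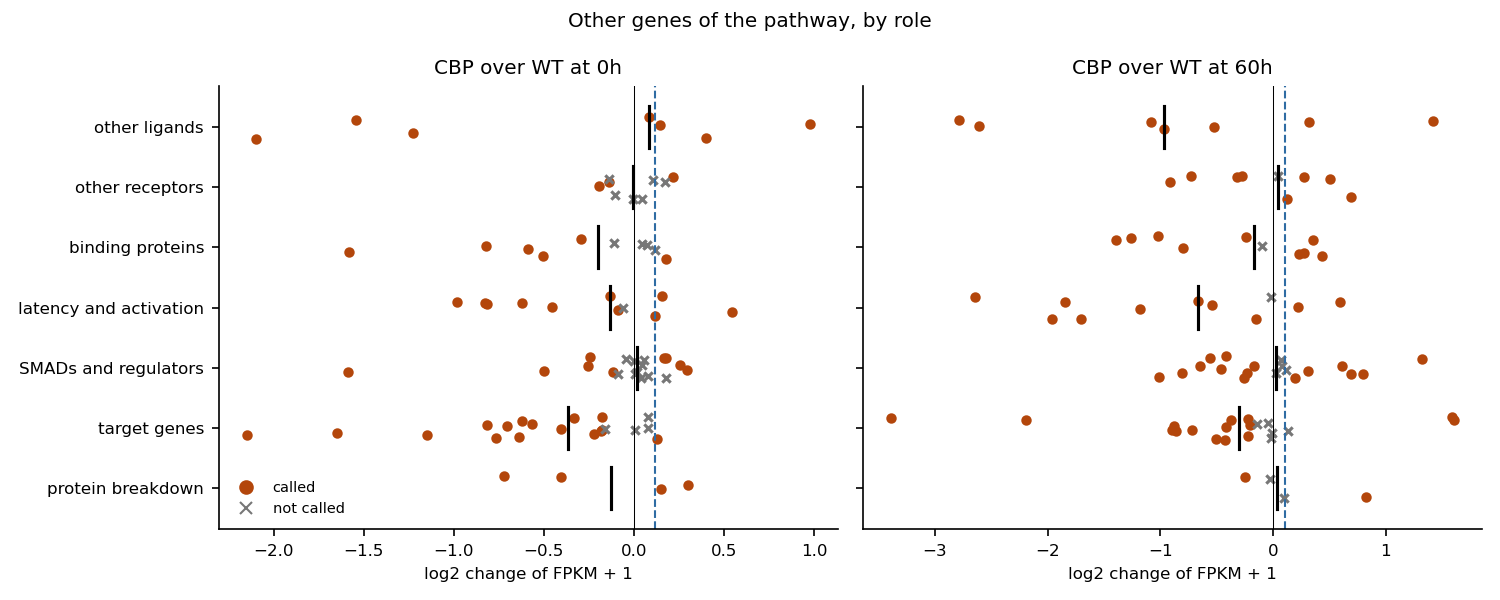
Log2 change of FPKM + 1 between CBP and WT cells at 0h (left) and 60h (right) for 80 other genes of the pathway in 7 lists by role; circles are called genes, crosses are not called, black bars are list medians and the dashed line is the median of all tested genes (0.12 and 0.10). At 60h the list medians of ligands (-0.97, with the protease BMP1 in the list) and of latency and activation genes (-0.66) lie farthest below 0.

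In the list of other ligands, 4 of 7 tested genes were higher and 3 lower in CBP cells at 0h, beside 44.2% and 18.1% of all tested genes. At 60h 2 were higher and 5 lower, beside 44.7% and 27.0% of all tested genes. The list holds BMP1, which despite its name is a protease and not a ligand. BMP1 was among the genes called higher at both stages (log2 change 0.08 at 0h and 0.32 at 60h). GDF15, a circulating stress cytokine, averaged 33.1 ± 3.16 FPKM in CBP and 24.7 ± 0.840 in WT cells at 0h, but 5.97 ± 0.183 in CBP and 41.6 ± 1.89 in WT cells at 60h, a difference between stages of -3.01 on the log2 scale (limma adjusted p = 1.49e-10). GDF6, a ligand of the BMP branch, averaged 2.18 ± 0.498 FPKM in CBP and 12.5 ± 1.01 in WT cells at 0h, and 0.555 ± 0.218 in CBP and 9.67 ± 0.377 in WT cells at 60h. BMP4, a BMP branch ligand, differed between stages by -1.23, with 5.23 ± 0.123 FPKM in CBP and 12.2 ± 0.464 in WT cells at 60h. Other receptors and co-receptors were called in 3 of 9 cases at 0h (1 higher, 2 lower) and in 8 of 9 at 60h (4 higher, 4 lower). Of all tested genes, 62.3% were called at 0h and 71.6% at 60h. The type I receptors ACVRL1 and BMPR1B were lower in CBP cells at 60h (log2 change -0.91 and -0.72). TGFBR3, a co-receptor that presents TGF-beta, rose with stage in CBP cells (1.45) and in WT cells (0.83).

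The list for latency and activation of TGF-beta had 7 of 11 genes lower in CBP cells at 0h and 8 of 11 at 60h. It had 3 and 2 higher. Among all tested genes 18.1% were lower at 0h and 27.0% at 60h, with 44.2% and 44.7% higher. LTBP2, a matrix protein of the latent TGF-beta binding protein family, averaged 200 ± 8.12 FPKM in CBP and 208 ± 0.950 in WT cells at 0h, but 17.8 ± 1.03 in CBP and 116 ± 4.17 in WT cells at 60h. ITGB6, an integrin subunit that activates latent TGF-beta, averaged 0.305 ± 0.0311 FPKM in CBP and 1.59 ± 0.201 in WT cells at 0h, and 0.181 ± 0.00932 in CBP and 3.60 ± 0.146 in WT cells at 60h. THBS1, a matrix protein that can activate latent TGF-beta, fell in CBP cells with stage by 1.61 on the log2 scale. Its mean went from 1274 to 416 FPKM in CBP cells, and also fell in WT cells, from 1960 to 1360 FPKM. Extracellular binding proteins and antagonists had 1 gene higher and 5 lower of 10 at 0h, and 4 higher and 5 lower at 60h. CHRD, an antagonist of BMPs, was lower in CBP cells at 60h (1.62 ± 0.105 FPKM, against 5.27 ± 0.198 in WT cells), and FSTL1, a follistatin-like glycoprotein, rose with stage to 797 ± 26.0 FPKM in CBP cells and 590 ± 12.6 in WT cells.

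Within the SMADs and their regulators, 4 of 19 were higher and 5 lower in CBP cells at 0h, beside 44.2% and 18.1% of all genes. At 60h 6 were higher and 9 lower, beside 44.7% and 27.0% of all genes. SMAD3, which carries the signal of TGF-beta, activin and myostatin receptors to the nucleus, averaged 29.6 ± 1.29 FPKM in CBP and 28.8 ± 0.512 in WT cells at 0h, but 45.0 ± 0.848 in CBP and 17.5 ± 0.944 in WT cells at 60h, a difference between stages of 1.28 (limma adjusted p = 8.44e-09). PMEPA1, a feedback inhibitor induced by TGF-beta, averaged 0.941 ± 0.139 FPKM in CBP and 4.83 ± 0.241 in WT cells at 0h, and 11.7 ± 0.547 in CBP and 24.5 ± 1.12 in WT cells at 60h. SKIL, a SMAD corepressor, was lower in CBP cells at 0h (log2 change -0.50). Its mean was also lower at 60h, at 18.5 ± 0.333 FPKM in CBP and 27.8 ± 0.888 in WT cells.

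Of 20 target genes known from work on TGF-beta and activin, 15 were lower and 1 higher in CBP cells at 0h. At 60h 13 were lower and 2 higher. Among all tested genes 18.1% were lower and 44.2% higher at 0h, and 27.0% lower and 44.7% higher at 60h. COL1A1 and ACTA2, 2 of the 20, are also in the marker lists whose sums moved with the groups, and the part of those cell type markers in the result was not tested. TGFBI, a matrix protein named for its induction by TGF-beta, was higher in CBP cells at 60h, with 65.8 ± 5.29 FPKM in CBP and 21.2 ± 1.38 in WT cells, against 3.44 ± 0.403 in CBP and 4.19 ± 0.411 in WT cells at 0h. JUNB, an AP-1 factor, rose with stage in both arms (log2 change 3.14 in CBP and 3.35 in WT cells). Of 4 genes of muscle protein breakdown, 2 were higher and 2 lower at 0h, and 1 was higher and 1 lower at 60h. TRIM63, a muscle ubiquitin ligase, averaged 6.65 ± 1.21 FPKM in CBP and 11.5 ± 1.02 in WT cells at 0h, and 18.3 ± 0.599 in CBP and 21.8 ± 0.857 in WT cells at 60h. FOXO3, which switches on such ligases, averaged 11.4 ± 0.0904 FPKM in CBP and 6.0 ± 0.329 in WT cells at 60h.

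The genes whose log2(FPKM + 1) over the 12 libraries was most like that of each member were named as a description. Libraries of a group lie close together, so any gene with similarly ordered and spaced means of the 4 groups scores high. The retinol dehydrogenase RDH10 followed MSTN most closely (Pearson r 0.994), with means of 3.64 FPKM in CBP and 5.34 in WT cells at 0h, and 10.0 in CBP and 4.63 in WT cells at 60h. INHBA was followed by GTPBP2 (0.996), ABLIM1 (0.994) and CCN4 (0.993), and FST by ADGRE5 (0.993), SEL1L (0.993) and RET (0.992). FSTL3 was followed by ITGB6 (0.990), the integrin subunit described above, and by the cytokine IL6 (0.989). TGFB1 was followed by the transferrin receptor TFRC (0.991), TGFB2 by the RNA-binding protein QKI (0.986) and TGFB3 by CCDC141 (0.999) and MAP3K7CL (0.998). TGFBR1 was followed by the proton pump subunit ATP6V1G1 (0.991), and TGFBR2 by EXOC6 and the proteoglycan GPC1 (both 0.992).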

How the data were processed

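Total RNA of 12 samples went into VAHTS Universal V8 libraries, per the labels' protocols. The submitters' processing notes name Trimmomatic, featureCounts and the build Sscrofa11.1, all without further versions. Which aligner, annotation and strandedness were used is not stated there, so a gene and an antisense partner may share reads. The authors deposited FPKM values for 31908 genes, 1 column per library. Columns named NC were taken as WT, the only other arm in the labels. FPKM steps gave whole reads (tolerance 0.001) for all 22521 genes above 0. Genes with FPKM of 1 or more in at least 3 libraries (11636) entered limma (version 3.58.1, R 4.3.3) on log2(FPKM + 1), as 4 group means over 12 libraries with a trended spread, two-sided, with Benjamini-Hochberg adjustment per comparison. This scale understates changes of low genes, and folds are ratios of mean FPKM. The fit and the read recovery were tested on simulated data. Positions come from the RefSeq table of Sscrofa11.1, matched by symbol, and none is given for INHBA, whose entry there is not protein-coding. Named were the 10 members, up to 2 called genes with the largest change per list and comparison at a mean of 1 FPKM or more (not all are repeated), and the 3 genes most correlated with each member. Alternatives changed the pseudocount (0.1), filter, scaling, spread, groups fitted, replicate block and libraries, and used voom on recovered reads, an alternative chosen after seeing the data. The members, lists and rules were chosen with earlier results of these data known. 1 gene named by the rule is not reported here.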

Additional observations from a re-analysis of the deposited data

Results flagged for a closer look

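A test of the difference between the effect at 60h and the effect at 0h was called (limma, adjusted p under 0.05) for 6 of the 9 tested genes. The same test was called for 50.9% of all tested genes. The differences, on the log2(FPKM + 1) scale and as the CBP minus WT change at 60h less that at 0h, were 2.55 for MSTN (adjusted p = 3.23e-10), -1.42 for INHBA (4.95e-07), -1.09 for FSTL3 (2.08e-05), -0.79 for TGFB1 (1.20e-05), 0.76 for TGFB2 (2.40e-05) and -0.35 for FST (0.021). MSTN and TGFB1 had changes of opposite sign at the stages, each called at both. In the other 4 genes the change had the same sign at both stages and differed in size. For FST the ratios of mean FPKM were 3.77 and 3.74, and with 0.1 in place of 1 as pseudocount the difference was -0.09 (adjusted p = 0.719), which was not called. No group was large enough for a test of single outlying libraries.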

How the results depend on the processing

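Of 981 recomputed changes of single members (45 results, up to 22 alternatives), 963 kept their direction and their side of the threshold, 9 lost the call, 8 gained it and 1 uncalled difference (TGFB3 between stages, -0.01 without CBP replicate 1 at 0h) changed sign. No called value changed sign. The number of members called higher in CBP cells at 0h became 1 with median-of-ratios scaling, that of other pathway genes became 5 (9 with quantile scaling) and that of all genes 2958, since this scaling removes the positive median of all genes. With no filter, 4 members had a more positive change at 60h than at 0h, as ACVR2B enters and TGFBR1 passes. When only the CBP libraries were fitted, 2 members were lower at 60h than at 0h in CBP cells (FSTL3 passes, adjusted p = 0.0317), and leaving out 1 library gave 1 to 2. The difference between stages of FST was lost with a pseudocount of 0.1, after TPM scaling (adjusted p = 0.229), with voom (0.969), and without CBP replicate 1 at 0h (0.0507), CBP replicate 1 at 60h (0.0525), WT replicate 2 at 0h (0.0535) or WT replicate 3 at 60h (0.0525). TGFBR1 between stages passed without CBP replicate 2 at 0h (0.0451) or WT replicate 3 at 60h (0.0404). Replicate numbers did not pair the libraries (correlations of same-numbered deviations -0.0935 to 0.082; the same number correlated best in 6 of 18 cases). The replicate block kept the member counts at 2 higher and 7 lower at both stages and gave 5098 higher and 2084 lower genes at 0h. At these depths FST (12 to 135 reads per library) and ACVR2B (45 to 98) rest on the fewest reads. INHBA rests on 50 to 63 reads per library in CBP cells at 0h. Among the 9 tested genes FSTL3 had the largest standard error in the CBP to WT comparisons (0.090). Intervals of the read counts cover counting error only and are not given.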
